A study of Mus musculus with 24 samples.

Results

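The genes described here encode spliceosome proteins, SR proteins and hnRNP proteins. They were taken by symbol from all genes whose names were Srsf, Hnrnp, Snrp or Sf3 followed by the letters and digits of a family member. The rule found 52 of the 41710 genes of the expression tables: 11 SR proteins, 20 hnRNP proteins, 12 Sm and other snRNP proteins, and 9 subunits of SF3A and SF3B.

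The spliceosome removes introns from nuclear transcripts through small nuclear ribonucleoproteins (snRNPs), most of them an RNA held in a ring of Sm proteins, and for U6 of Lsm proteins. The U1 snRNP reads the 5′ splice site and the U2 snRNP, with SF3A and SF3B, the branch point. SR proteins mostly bind exonic enhancers and favour the use of nearby splice sites, whereas many hnRNP proteins silence exons or coat the transcript. Myc binds DNA with Max, typically at the sequence CACGTG, and Mlx is the partner of MondoA, ChREBP and some Mxd proteins.

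RNA was sequenced from mouse embryonic fibroblasts (MEFs), grown from pooled embryos, at least 6 to a pool and of embryonic days 14 to 16. There were 8 groups of 3 libraries: WT, MlxKO, MycKO and DKO (loss of both genes), each as primary cells and as cells immortalized with the SV40 T-antigen. The floxed alleles of Myc, Mlx or both were homozygous and were excised by a Cre recombinase fused to the estrogen receptor, expressed from the ROSA26 promoter and switched on with 500 nM 4-hydroxytamoxifen (4OHT). WT cells had intact loci and received vehicle, or medium without 4OHT for the immortalized line, so effects of the drug and of active Cre cannot be told apart from those of genotype. The WT control in most of the study's experiments was a single line of several with intact loci, and which line was sequenced is not stated, so a difference in parental line cannot be told apart from genotype either.

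Primary cells were sequenced in culture after excision. Immortalized cells were first transduced with a lentivirus that carried the T-antigen and selected with blasticidin, and the loci were excised afterwards. The study reports growth arrest of primary MycKO and DKO cells, and a tetraploid or pseudo-tetraploid state in most immortalized MycKO cells. Growth arrest and ploidy therefore cannot be told apart from direct effects of the lost genes. Each group came from pooled embryos and was made into triplicate RNAs. The study calls them biological replicates, and whether they came from separate cultures is not stated, so p-values measure the spread between these samples.

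Values are read counts scaled to library size (CPM) as given by the authors, who do not name the method of scaling between libraries. The primary and the immortalized tables were scaled separately and were not tested against each other. Reads on genes ranged from 15986856 to 20966163 per library, with a median of 18208568. In primary cells they ranged from 16692411 to 17887312 in WT, from 15986856 to 18502811 in MlxKO, from 16081463 to 20966163 in MycKO and from 17667784 to 20361685 in DKO. In immortalized cells the ranges were 17541112 to 17887100 in WT, 17944748 to 18938091 in MlxKO, 18327981 to 19851300 in MycKO and 18119003 to 18500836 in DKO. Depending on the library, 3 reads amount to 0.145 to 0.196 CPM, and such limits concern counting error alone.

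Fold changes are log2 differences of CPM + 1 with the standard error of limma, for 3 libraries against 3. A gene was called at an adjusted p under 0.05 (limma, two-sided, Benjamini-Hochberg over all genes tested). An exact permutation test of 3 against 3 libraries cannot go below 0.10 and was not used. The comparisons with WT within a table share the WT libraries, so their results are set side by side and not counted as separate support.

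Some libraries stood apart. In the immortalized table WT4 correlated with WT2 and WT3 at r of 0.95 and 0.943 over genes, against 0.992 between WT2 and WT3. It differed in marker genes too: Thy1, a surface protein of fibroblasts, was at 123 CPM in WT4 against 14.9 and 21.1, and the receptor gene Pdgfra at 565 against 98.8 and 116. MycKO9 correlated with the other immortalized MycKO libraries at 0.983 and 0.985, against 0.996 between those. Its Sm and snRNP genes summed to 940.5 CPM against 609 and 618. In the primary table MycKO10 deviated from its group in step with transcript GC content, with r of -0.516 over genes. In the immortalized table the same r was 0.541 for DKO13, -0.534 for MlxKO5, 0.451 for MlxKO6 and 0.392 for WT3. With transcript length the largest r was -0.4405, for immortalized MycKO9. Counts over all members are given below with and without WT4, MycKO9 and MycKO10 for comparisons in their table. Libraries on which some single calls depended are also named.

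The excised genes came first. Primary Myc, the targeted transcription factor, was at 100.1, 89.8 and 91.8 CPM in WT, 85.6, 89.6 and 87.3 in MlxKO, 25.8, 26.8 and 26.8 in MycKO and 21.6, 22.9 and 19.9 in DKO. All MycKO and DKO libraries lay below all WT and MlxKO libraries. The fall was -1.79 ± 0.07 in MycKO (limma, adjusted p = 5.95e-11) and -2.08 in DKO (adjusted p = 4.24e-12). Primary Mlx was at 26.0, 20.5 and 24.5 in WT, 13.0, 13.5 and 14 in MlxKO, 21.1, 17.3 and 20.5 in MycKO and 11.8, 12.0 and 9.73 in DKO. MlxKO and DKO lay below WT in every library, with falls of -0.76 ± 0.11 (limma, adjusted p = 0.000405) and -1.02 (adjusted p = 1.48e-06).

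Immortalized Myc was at 48.1, 39.9 and 177 CPM in WT, 72.4, 82.8 and 79.5 in MlxKO, 17.2, 11 and 9.96 in MycKO and 8.02, 5.77 and 4.25 in DKO. The high WT library was WT4, and MycKO and DKO lay below all WT libraries with it or without it. Myc changed by -2.41 ± 0.43 in MycKO (limma, adjusted p = 0.000817) and by -3.38 ± 0.43 in DKO (adjusted p = 0.000385). These values were -1.74 and -2.71 without WT4. Immortalized Mlx was at 25.1, 23.5 and 20.5 in WT, 17.0, 12.4 and 12.1 in MlxKO, 27.8, 25.1 and 22.4 in MycKO and 14.5, 18.0 and 17.7 in DKO. It changed by -0.71 ± 0.16 in MlxKO (limma, adjusted p = 0.00471). In DKO all libraries were below WT, yet the difference of -0.44 was not called (limma, adjusted p = 0.0694), and it was called without WT4, at -0.52, and without MlxKO5, at -0.44.

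The labelled cell type was checked against marker lists. The 10 fibroblast genes, of which Col1a1 was the most abundant, summed to between 42753 and 46398 CPM in primary WT and to between 55214 and 57558 in primary MycKO, where 8 were called higher and 1 lower. Immortalized sums ran from 25576 to 33710.1 in WT, from 18479.7 to 22714 in MlxKO, from 18011 to 24224 in MycKO and from 26722 to 34569 in DKO. Macrophage genes, with Lyz2 the most abundant, summed to between 366 and 719 in primary WT, 62.5 and 95.3 in MycKO and 131 and 293 in DKO. All 14 that were tested fell in primary MycKO, and among them the surface receptor gene Adgre1 was at 28.3, 22.3 and 16.7 in WT and 2.94, 2.62 and 3.24 in MycKO. In immortalized cells the macrophage sum stayed between 5.80 and 12.4, with Adgre1 and C1qa at 0 in all 12 libraries. In these bulk samples fewer cells of a type and less RNA per cell cannot be told apart.

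Other markers were low but differed between genotypes. Endothelial genes, mostly the receptor gene Kdr, summed to between 13.9 and 15.5 CPM in primary WT, 3.52 and 4.61 in MlxKO, 5.32 and 8.83 in MycKO and 5.06 and 5.92 in DKO. In immortalized cells they summed to between 3.10 and 5.05 in WT, 5.66 and 7.11 in MlxKO and 14.4 and 19.1 in MycKO. In immortalized DKO the sums lay between 7.64 and 9.002, with the receptor gene Tek the most abundant in DKO14 and DKO15. Only Kdr and Tek were tested. In immortalized MycKO Kdr rose by 2.21, while Tek, at -0.08, was not called (limma, adjusted p = 1.05e-06 and 0.81). In primary MycKO Kdr changed by -1.18 and Tek, not called, by 0.48 (limma, adjusted p = 6.33e-06 and 0.0659). Epithelial genes summed to between 16.5 and 19.9 in primary WT, 3.23 and 4.78 in MlxKO, 2.00 and 2.24 in MycKO and 1.95 and 2.76 in DKO, and to at most 5.91 in immortalized cells. Neuronal genes summed to between 48.5 and 59.0 in primary WT and 70.8 and 86.7 in primary MycKO, mostly the tubulin gene Tubb3, which rose by 0.63 while Stmn2, a regulator of microtubules, changed by -0.99 (limma, adjusted p = 5.58e-05 and 0.000184). In immortalized cells they summed to between 3.51 and 8.10 in WT, with Tubb3 the most abundant. The sums lay between 62.9 and 75.6 in MycKO, with Stmn2 the most abundant. They lay between 21.0 and 22.7 in immortalized MlxKO and between 5.29 and 6.84 in immortalized DKO. No skeletal muscle gene passed the filter on low values.

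Proliferation genes, such as the replicative helicase gene Mcm6, summed to between 1412 and 1487 in primary WT, 1148 and 1191 in MlxKO, 819.5 and 964 in MycKO and 649 and 682 in DKO. In primary MycKO and DKO all 12 fell, with medians of -0.78 and -1.20, and in primary MlxKO 11 fell. None of the 12 was called in immortalized MycKO by limma, where 2 had an unadjusted p under 0.05. Whether the markers that moved with the knockouts had a part in the splicing gene results was not tested.

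In primary cells the splicing genes were mostly lower after Myc loss. Of 51 members tested, 30 fell and 1 rose in MycKO, which is 58.8% lower against 21.9% of all genes tested and 2.0% higher against 20.4%. Their median log2 fold change was -0.27, against 0.00 over all genes. In DKO 38 fell and 2 rose, or 74.5% and 3.9% of those tested, against 25.5% and 24% of all genes, with a median of -0.36 against 0.00. The summed CPM of the members was 9565, 9579 and 8803 in WT, 8617, 8720.3 and 9007 in MlxKO, 7907, 7431 and 7946 in MycKO and 7247, 7360.2 and 7321 in DKO. Every MycKO and DKO sum lay below every WT and MlxKO sum. Srsf12 was the member not tested, at between 0.327 and 1.23 CPM. Without MycKO10 the counts were 30 lower and 5 higher in MycKO, and 43 lower and 2 higher in DKO. With reads divided by library totals 39 members were lower and 1 higher in MycKO, with a median of -0.37 against -0.09 over all genes, of which 30.9% were lower and 14.1% higher on that scale.

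**Figure D1:**
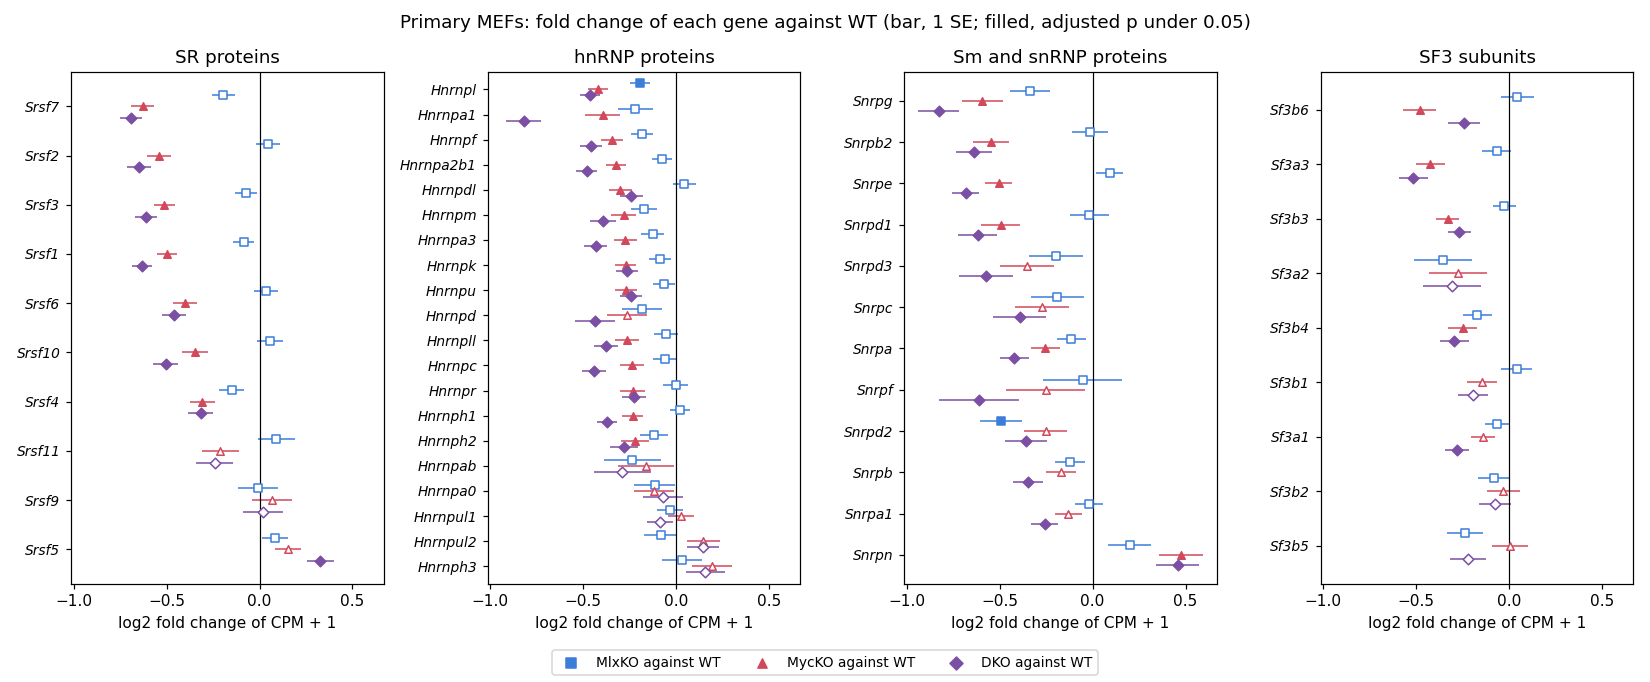
Log2 fold change against WT of each gene in primary MEFs, in 4 panels by family, with squares for MlxKO, triangles for MycKO and diamonds for DKO, bars of 1 SE and filled symbols at an adjusted p under 0.05. Most triangles and diamonds lie left of zero, with medians of -0.27 and -0.36, and Snrpn lies right of it.

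Among the SR proteins 7 of 10 fell in primary MycKO, with a family median of -0.37, and 7 fell and 1 rose in DKO, with a median of -0.48. Srsf7, an SR protein with a zinc knuckle that also serves in mRNA export, was at 98.9, 101 and 93.4 CPM in WT, 83.0, 84.1 and 89.0 in MlxKO, 61.3, 64.0 and 63.4 in MycKO and 58.3, 62.1 and 60.3 in DKO. All MycKO and DKO libraries were below all others, and the MlxKO libraries lay between. The fold was -0.63 ± 0.06 in MycKO (limma, adjusted p = 5.65e-07) and -0.69 ± 0.06 in DKO (adjusted p = 1.25e-07). Srsf1, which binds exonic enhancers, was at 274, 276 and 262 in WT, 244, 258 and 263 in MlxKO, 188, 199 and 187 in MycKO and 172, 175 and 176 in DKO. Again MycKO and DKO did not overlap WT or MlxKO. Srsf1 changed by -0.50 ± 0.05 in MycKO (limma, adjusted p = 1.96e-06) and by -0.63 ± 0.05 in DKO (adjusted p = 1.03e-07).

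Srsf2, an SR protein of nuclear speckles, was at 312, 301 and 312 CPM in WT, 201, 226 and 209.6 in MycKO and 185, 204 and 200.1 in DKO. Srsf3, the smallest SR protein, was at 261, 245 and 248 in WT, 174, 178 and 175 in MycKO and 163, 174 and 156 in DKO. For both genes each MycKO and DKO library was below each WT library. Their falls in MycKO were -0.54 ± 0.07 and -0.51 ± 0.06 (limma, adjusted p = 5.49e-06 and 2.95e-06). Srsf5, an SR protein with a role in splice site choice, went the other way. It was at 188, 181 and 160.0 in WT, 192, 179 and 188 in MlxKO, 202, 182 and 203 in MycKO and 206, 233 and 224 in DKO. The DKO libraries were above all WT libraries, while MycKO overlapped WT. Srsf5 rose by 0.33 ± 0.07 in DKO (limma, adjusted p = 0.00113), and its MycKO difference of 0.15 was not called (adjusted p = 0.0967). Srsf9 was the other member at the upper end, with 0.07 in MycKO (limma, adjusted p = 0.647).

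Of the 20 hnRNP proteins 14, or 70.0%, fell in primary MycKO, against 21.9% of all genes, with a median of -0.26. In DKO 15 of them, or 75.0%, fell, against 25.5%, with a median of -0.33. Corrected for GC content and transcript length, 7 were lower and 1 higher in MycKO, with a median of -0.16. With that correction 22.4% of all genes were lower and 24.6% higher. Hnrnpa1, which represses the inclusion of many exons, was at 414, 441 and 349 CPM in WT, 344, 326 and 360.1 in MlxKO, 332, 256 and 329 in MycKO and 229, 224 and 225 in DKO. Each DKO library was below each library of the other groups, and MycKO was below WT. The folds were -0.39 ± 0.09 in MycKO (limma, adjusted p = 0.00307) and -0.82 ± 0.09 in DKO (adjusted p = 2.63e-06). The MycKO call was lost once folds were corrected for GC content and transcript length, at -0.22 (limma, adjusted p = 0.0733), and 53.0% of the 50-base stretches of the transcript also occur in other genes, so reads may be assigned uncertainly.

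Hnrnpl, which binds CA repeats, was at 305, 311 and 285 CPM in WT, 264, 260.1 and 261 in MlxKO, 229, 218 and 225 in MycKO and 214, 226 and 212 in DKO. All knockout libraries were below WT, and MycKO and DKO were below MlxKO. It changed by -0.42 ± 0.05 in MycKO (limma, adjusted p = 1.18e-05) and by -0.46 in DKO (adjusted p = 3.33e-06). Hnrnpa2b1, a close relative of Hnrnpa1, was at 590.4, 619 and 575 in WT, 476, 475 and 475 in MycKO and 415, 430.0 and 432 in DKO. The groups did not overlap, with falls of -0.32 ± 0.05 and -0.48 (limma, adjusted p = 0.000157 and 2.09e-06). Hnrnpk, a KH-domain protein that binds poly-C, and Hnrnpu, a nuclear scaffold protein, both changed by -0.27 ± 0.06 in MycKO (limma, adjusted p = 0.00125 and 0.00156). With the GC and length correction Hnrnpk was no longer called, at -0.16 in MycKO and -0.14 in DKO, and Hnrnpu was no longer called in DKO, at -0.17. At the upper end, Hnrnph3, which binds G runs, was at 0.19 and Hnrnpul2, an Hnrnpu-like protein, at 0.15 in MycKO, neither called (limma, adjusted p = 0.159 and 0.195).

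The Sm and snRNP genes gave 5 lower and 1 higher of 12 in primary MycKO, and 11 lower and 1 higher in DKO. The medians were -0.26 and -0.50. Without WT1 the DKO calls of Snrpc, Snrpd2 and Snrpf were lost (limma, adjusted p = 0.0794, 0.0537 and 0.0756), as was that of Snrpa1. Snrpf in DKO was also not called by DESeq2 (adjusted p = 0.052) or with the GC and length correction, at -0.37 (limma, adjusted p = 0.129). The MycKO count was 10 lower and 1 higher with library totals, and the MycKO median was -0.16 without MycKO10. Snrpg, of the Sm ring, was at 39.5, 39.8 and 35.8 CPM in WT, 33.6, 25.9 and 31.4 in MlxKO, 26.1, 21.5 and 28.1 in MycKO and 19.5, 21.7 and 22.4 in DKO. All knockout libraries were below WT. It changed by -0.59 ± 0.11 in MycKO (limma, adjusted p = 0.000353) and by -0.83 ± 0.11 in DKO (adjusted p = 1.09e-05). Snrpb2, a protein of the U2 snRNP, was at 35.2, 35.7 and 34.9 in WT, 21.0, 24.9 and 26.0 in MycKO and 21.5, 23.1 and 22.3 in DKO. Snrpd1, of the Sm ring, was at 57.5, 54.4 and 52.2 in WT, 37.1, 43.4 and 35.4 in MycKO and 37.3, 35.3 and 33.2 in DKO. Neither overlapped WT in MycKO or DKO. Their MycKO falls were -0.55 ± 0.10 and -0.50 ± 0.10 (limma, adjusted p = 0.000282 and 0.001).

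Other ring genes passed the test in DKO and not in MycKO. Snrpd3 was at 46.7, 48.8 and 37.9 CPM in WT, 38.4, 25.7 and 41.4 in MycKO and 29.3, 28.0 and 30.9 in DKO. MycKO overlapped WT, with MycKO10 the lowest, and DKO did not. The MycKO difference of -0.35 ± 0.15 was not called (limma, adjusted p = 0.0623), and the DKO fall was -0.57 ± 0.15 (adjusted p = 0.00352). Snrpb, whose product sits in the same ring, changed by -0.35 ± 0.08 in DKO (limma, adjusted p = 0.00203), against -0.17 in MycKO (adjusted p = 0.105). Snrpa1, of the U2 snRNP, changed by -0.26 ± 0.07 in DKO (limma, adjusted p = 0.00761), a call that was lost without WT1 (adjusted p = 0.0514) and with the GC and length correction, at -0.06. For none of these 3 was the difference between DKO and MycKO called by limma.

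Snrpn moved the other way. This imprinted gene encodes an Sm protein found mostly in neurons. It was at 9.54, 12.4 and 13.1 CPM in WT, 13.3, 13.5 and 13.6 in MlxKO, 16.6, 15.5 and 17.4 in MycKO and 14.5, 16.2 and 18.4 in DKO. All libraries of each knockout were above all WT libraries. It rose by 0.48 ± 0.12 in MycKO (limma, adjusted p = 0.00356) and by 0.46 ± 0.12 in DKO (adjusted p = 0.00375), and its MlxKO difference of 0.20 was not called (adjusted p = 0.322). Snrpn overlaps Snurf on the same strand, and 18.5% of its 50-base stretches occur elsewhere, so its level is uncertain to that degree.

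Among the 9 SF3 genes 4 fell in primary MycKO and 5 in DKO, with medians of -0.25 and -0.27. These were 44.4% and 55.6%, against 21.9% and 25.5% of all genes. The MycKO call of Sf3b4 was lost without WT2 or MycKO10 (limma, adjusted p = 0.0752 and 0.0527). It was also lost with only the groups compared (0.0642). Without MycKO10 the MycKO median of the SF3 genes was -0.15 and 8 of them were lower in DKO. Sf3b6, whose product lies at the branch point, was at 38.0, 34.7 and 34.7 CPM in WT, 34.0, 37.3 and 39.7 in MlxKO, 25.9, 23.6 and 26.5 in MycKO and 33.4, 28.9 and 28.2 in DKO. MycKO was the lowest group and overlapped none of the others. It changed by -0.48 ± 0.09 in MycKO (limma, adjusted p = 0.000304) and by -0.24 ± 0.09 in DKO (adjusted p = 0.0299). The DKO call was lost without WT1, DKO14 or DKO15 (limma, adjusted p = 0.119, 0.101 and 0.122) and with the GC and length correction, at 0.00.

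Sf3a3, an SF3A subunit, was at 62.2, 55.0 and 59.1 CPM in WT, 45.9, 43.6 and 41.1 in MycKO and 40.3, 43.7 and 38.4 in DKO. Sf3b3, an SF3B subunit, was at 202, 195 and 213 in WT, 151, 175 and 159 in MycKO and 173, 169.7 and 163 in DKO. Both were below WT in every library of these knockouts. Their MycKO falls were -0.42 ± 0.08 and -0.33 ± 0.06 (limma, adjusted p = 0.000377 and 0.000379). Sf3b1, the largest SF3B subunit, was at 347, 333 and 378 in WT and 291, 371 and 297 in MycKO. MycKO10 overlapped WT and the other MycKO libraries were below it. The difference of -0.15 was not called (limma, adjusted p = 0.16). Sf3b5 and Sf3b2, small and larger SF3B subunits, were at 0.00 and -0.03 in MycKO, also not called (limma, adjusted p = 0.98 and 0.801).

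**Figure D2:**
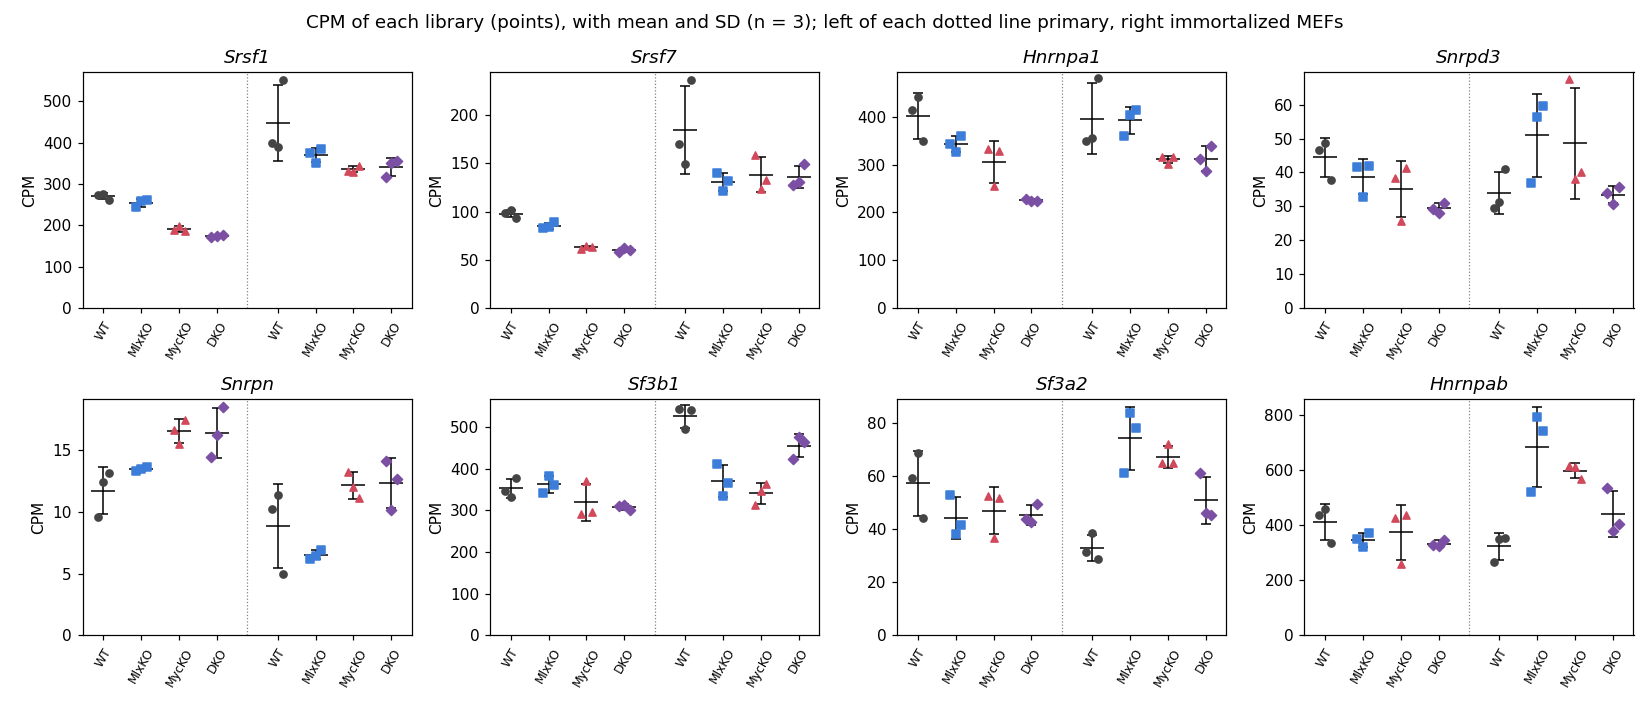
CPM of 8 genes in each library (points), with mean and SD of 3 libraries, primary MEFs left and immortalized MEFs right of the dotted line in each panel. Primary Srsf7 lies between 58.3 and 64.0 in MycKO and DKO against 93.4 to 101 in WT, and immortalized Sf3a2 between 61.2 and 84.0 in MlxKO against 28.9 to 38.5 in WT.

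Loss of Mlx alone gave few calls in primary cells. There 2 members fell and 0 rose, or 3.9% and 0.0% of those tested, against 5.14% and 3.75% of all genes, so the share was near the background. Of the members 11 had an unadjusted p under 0.05, and edgeR and DESeq2 called 4 and 5 lower and 0 higher. The members that fell were Hnrnpl, at -0.19 ± 0.05 (limma, adjusted p = 0.0346), and Snrpd2, of the Sm ring, at -0.49 ± 0.11 (adjusted p = 0.0116), the latter named after its values were seen. Snrpd2 was at 67.0, 75.4 and 52.5 CPM in WT and 49.7, 41.5 and 45.2 in MlxKO, with all MlxKO libraries below WT. The count rested on single libraries: it was 0 without WT1, WT2 or MlxKO6, 1 without MlxKO5, MlxKO7, DKO13 or DKO15, 7 without MycKO10 and 8 without WT3. Hnrnpl was not called without WT1, WT2, MlxKO5, MlxKO6, MlxKO7, DKO13 or DKO15 (limma, adjusted p from 0.0502 to 0.157), nor Snrpd2 without WT1, WT2 or MlxKO6 (0.0555, 0.0778 and 0.0618).

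Adding Mlx loss to Myc loss was read by setting DKO against MycKO in primary cells. 3 members fell and 0 rose, or 5.9% and 0.0%, against 11% and 10.6% of all genes, a lower share than the background, with 15 at an unadjusted p under 0.05. edgeR called 2 lower and DESeq2 4 lower, and both 0 higher. The 3 were hnRNP genes: Hnrnpa1, at -0.43 ± 0.09 (limma, adjusted p = 0.00366), Hnrnpc, at -0.21 ± 0.06 (adjusted p = 0.0301), and Hnrnpa2b1, at -0.16 ± 0.05 (adjusted p = 0.0477). Hnrnpc binds uridine tracts and was named after its values were seen. It was at 170.0, 179 and 176 CPM in MycKO and 157, 151 and 147 in DKO, with no overlap. The count was 13 without MycKO10 and 1 without MycKO11, DKO14 or DKO15, and Hnrnpa2b1 was not called without any one of WT1, WT2, MlxKO6, MycKO9, MycKO11, DKO13, DKO14 or DKO15 (limma, adjusted p from 0.0571 to 0.162). Hnrnpc was not called without MycKO11, DKO14 or DKO15 (limma, adjusted p = 0.0759, 0.0847 and 0.122), nor with the GC and length correction (0.0586).

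DKO against MlxKO measured Myc loss in cells that lacked Mlx. In primary cells 35 members fell and 2 rose, or 68.6% and 3.9%, against 25.9% and 23.3% of all genes, with a median of -0.25 against -0.02. SR genes gave 8 lower and 1 higher of 10, hnRNP genes 13 lower and 1 higher of 20, Sm and snRNP genes 9 lower of 12 and SF3 genes 5 lower of 9. The members that rose were Srsf5, at 0.24 (limma, adjusted p = 0.00931), and Hnrnpul2, at 0.23 (adjusted p = 0.0405). Without MycKO10 37 were lower and 2 higher. Srsf5 was not called without DKO14 (limma, adjusted p = 0.0522), nor Hnrnpul2 without DKO13, DKO15, MlxKO5, MlxKO6 or MlxKO7 (from 0.0602 to 0.133). Reads divided by library totals moved the median of all genes in this comparison to -0.12, and 38 members were then lower and 0 higher, against 35.3% and 16.9% of all genes.

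The interaction asked whether the effect of Myc loss differed with Mlx genotype. In primary cells limma called 0 of 51 members in either direction, or 0.0% against 7.47% higher and 6.07% lower over all genes. There were 3 members at an unadjusted p under 0.05, and edgeR and DESeq2 called 0 and 0. The count was 1 without WT3 and 2 without MycKO10. A count of 0 does not show that the effects were equal.

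Splicing genes outside the naming rule were grouped by role. In primary MycKO 58.3% of other snRNP proteins and 76.9% of Sm ring assembly genes were lower, against 21.9% of all genes. In primary MycKO 14 of 24 other snRNP proteins fell, with a median of -0.30, and Lsm3, of the Lsm ring on the U6 RNA, was the lowest. It was at 18.3, 17.8 and 19.5 CPM in WT and 11.7, 9.75 and 11 in MycKO, with no overlap, a fall of -0.73 ± 0.09 (limma, adjusted p = 1.17e-05). Of the 13 genes that assemble the Sm ring 10 fell, with a median of -0.43. Among them Gemin5, which binds snRNA for the SMN complex, was at 60.9, 63.9 and 64.7 in WT and 34.4, 38.3 and 32.2 in MycKO, all below WT, a fall of -0.84 ± 0.08 (limma, adjusted p = 3.03e-07). Prmt5, which methylates Sm proteins, was at 66.4, 65.9 and 67.7 in WT and 48.5, 50.2 and 50.1 in MycKO. Its groups did not overlap and it changed by -0.42 ± 0.06 (limma, adjusted p = 4.26e-05).

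Of 12 branch point and 3′ splice site factors 7 fell, with a median of -0.23, and U2af1, which reads the AG of the 3′ splice site, changed by -0.46 ± 0.08 (limma, adjusted p = 0.000254). The Prp19 complex and catalytic helicases gave 6 lower of 17 with a median of -0.11, led by the ubiquitin ligase gene Prpf19 at -0.57 ± 0.06 (limma, adjusted p = 1.26e-06). SR-related proteins gave 7 lower of 14 with a median of -0.21, led by the splicing activator gene Tra2b at -0.53 ± 0.06 (limma, adjusted p = 2.09e-06), or -0.33 with the GC and length correction. Other hnRNP-type regulators gave 9 lower and 1 higher of 26 with a median of -0.19, led by Rbmx, which encodes hnRNP G, at -0.58 ± 0.09 (limma, adjusted p = 4.52e-05). Ptbp1, which encodes a repressor that binds pyrimidine tracts, was at 497, 502 and 486 CPM in WT, 411, 422 and 396 in MycKO and 376, 365 and 348 in DKO. The groups did not overlap, and its falls were -0.27 ± 0.05 and -0.45 (limma, adjusted p = 0.000657 and 4.16e-06).

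The remaining groups were near zero in primary MycKO. The minor spliceosome gave 1 lower and 1 higher of 8 with a median of -0.03: Rnpc3 changed by -0.30 (limma, adjusted p = 0.0261) and Snrnp35 rose by 0.49 ± 0.16 (adjusted p = 0.0245), both encoding proteins of the U11 and U12 snRNP. Rnpc3 was not called without WT3 or MycKO11 (limma, adjusted p = 0.144 and 0.0608) and was at -0.15 with the GC and length correction (0.265), and Snrnp35 was not called without WT1, MycKO9 or MycKO11 (0.0924, 0.093 and 0.0927) or with library totals (0.0531). SR kinases gave 1 lower of 6 with a median of -0.04, and that one, Srpk1, changed by -0.32 ± 0.07 (limma, adjusted p = 0.00111). The shares of these 2 groups were near or below the background of 21.9%. In DKO, where 25.5% of all genes were lower and 24% higher, 75.0% of other snRNP proteins, 75.0% of branch point factors, 52.9% of the Prp19 group, 76.9% of Sm ring assembly genes, 57.1% of SR-related proteins and 42.3% of other hnRNP-type regulators were lower. The minor spliceosome and SR kinases gave 1 lower and 1 higher each, or 12.5% and 16.7% in each direction, below the background.

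In immortalized cells the counts after Myc loss were near the background. In MycKO 14 of 52 members fell and 6 rose, or 26.9% and 11.5%, against 23.5% and 24.4% of all genes, with a median of -0.15 against 0.00. The share of falls is therefore not a result about the members, and the share of rises was lower than over all genes. Without WT4 the counts were 14 lower and 10 higher with a median of -0.05, and without MycKO9 18 lower and 6 higher. The summed CPM of the members was 12120.3, 11893 and 13916 in WT, 11596, 11731 and 12043 in MlxKO, 11132, 10859 and 10976 in MycKO and 10851, 10942 and 11471 in DKO. WT4 had the highest sum, and every MycKO and DKO sum was below the WT sums.

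**Figure D3:**
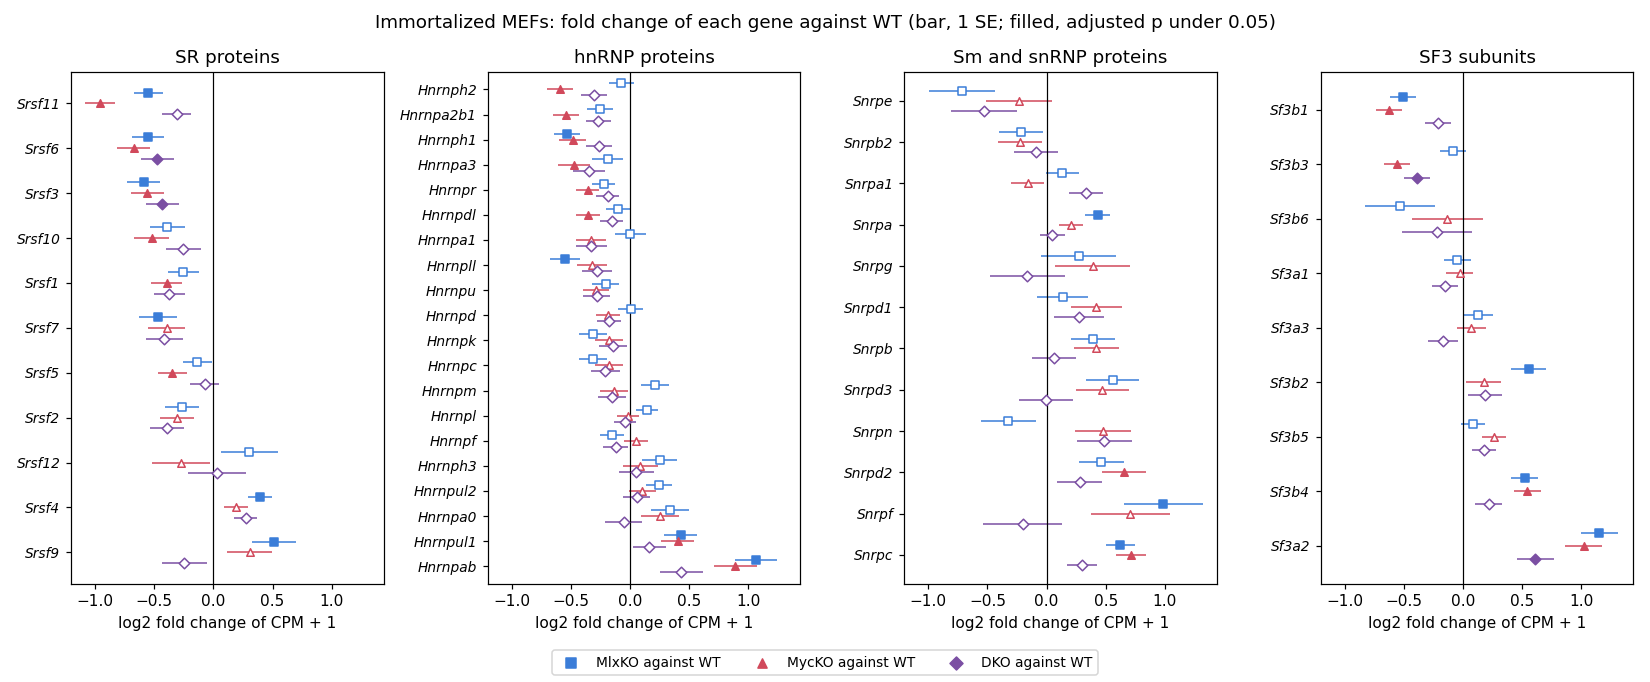
Log2 fold change against WT of each gene in immortalized MEFs, in 4 panels by family, with squares for MlxKO, triangles for MycKO and diamonds for DKO, bars of 1 SE and filled symbols at an adjusted p under 0.05. The triangles run from SR genes with a median of -0.40 to Sm and snRNP genes with a median of 0.42, which is 0.23 without library MycKO9.

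The family medians were on different sides of zero in immortalized MycKO. SR genes gave 6 lower and 0 higher of 11 with a median of -0.40, and hnRNP genes 6 lower and 2 higher of 20 with a median of -0.18. Sm and snRNP genes gave 0 lower and 2 higher of 12 with a median of 0.42. SF3 genes gave 2 lower and 2 higher of 9 with a median of 0.07. Of all genes 23.5% were lower and 24.4% higher. The lower shares were 54.5% of SR and 30.0% of hnRNP genes. The Sm and snRNP share of 16.7% higher and the SF3 shares of 22.2% each way were below the background. With the GC and length correction, chosen after seeing the data, the hnRNP median was 0.04 and the SF3 median -0.04, each with the opposite sign. The SR median was then -0.18 and the Sm and snRNP median 0.37. MycKO9 stood out in the Sm and snRNP family, whose median log2 difference from the WT mean was 0.79 in MycKO9, 0.22 in MycKO10 and 0.24 in MycKO11. Without MycKO9 the family gave 2 lower and 2 higher with a median of 0.23, and without WT4 0 lower and 6 higher with a median of 0.54. The hnRNP median was -0.11 without WT4, and the SF3 median was 0.13 without MycKO9 and 0.03 without WT4.

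Srsf11, an SR protein that interacts with U2AF, was at 346, 284 and 370.2 CPM in WT, 252, 208 and 219.6 in MlxKO, 154, 169 and 189.7 in MycKO and 251, 275 and 276 in DKO. All 3 knockouts were below WT, MycKO the lowest. It changed by -0.96 ± 0.13 in MycKO (limma, adjusted p = 8.32e-05) and by -0.55 ± 0.13 in MlxKO (adjusted p = 0.00539), and its DKO difference of -0.31 was not called (adjusted p = 0.0996). Srsf6 was at 465, 426 and 471 in WT, 310.3, 296 and 321 in MlxKO, 358, 244 and 261 in MycKO and 293, 340.0 and 349.8 in DKO. Every knockout library of this SR protein, which binds exonic enhancers, was below WT. Its MycKO fall was -0.68 (limma, adjusted p = 0.00185). Srsf1 changed by -0.40 ± 0.13 in MycKO (limma, adjusted p = 0.0241), not called without MycKO10 (adjusted p = 0.0628), MycKO11 (0.0507) or WT4 (0.0542), and at -0.07 with the GC and length correction (adjusted p = 0.616). Srsf2 was not called in any comparison with WT, at -0.31 in MycKO (limma, adjusted p = 0.0978).

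Hnrnpab, an hnRNP protein that binds AU-rich and single-stranded sequences, was at 267, 349 and 354 CPM in WT, 519, 789.9 and 741 in MlxKO, 613, 612 and 565 in MycKO and 534, 379 and 403 in DKO. All knockout libraries were above WT. It rose by 0.89 ± 0.18 in MycKO (limma, adjusted p = 0.00172) and by 1.06 ± 0.18 in MlxKO (adjusted p = 0.0012), and the DKO difference of 0.43 was not called (adjusted p = 0.11). Hnrnpa2b1 was at 885, 858 and 1001 in WT, 785, 721 and 790.0 in MlxKO, 608, 629.5 and 643 in MycKO and 726, 739.7 and 809 in DKO. Each knockout library was below WT, MycKO the lowest. Its fall in MycKO was -0.54 ± 0.11 (limma, adjusted p = 0.00155). Hnrnph1 and Hnrnph2, which bind G runs, changed by -0.49 and -0.59 ± 0.11 in MycKO (limma, adjusted p = 0.00378 and 0.000855). Hnrnph1 was not called with the GC and length correction, at -0.03. Hnrnpul1, an Hnrnpu-like protein, rose by 0.40 (limma, adjusted p = 0.029), a call lost without MycKO10, MycKO11 or WT4 (adjusted p = 0.108, 0.0818 and 0.0746) and with the correction, at 0.15 (0.232).

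Among the Sm and snRNP genes Snrpc, of the U1 snRNP, was at 37.8, 42.5 and 41.2 CPM in WT, 58.7, 62.8 and 67.5 in MlxKO, 79.7, 60.2 and 62.6 in MycKO and 47.4, 46.8 and 56.0 in DKO. All knockouts were above WT, and MycKO9 was the highest library. It rose by 0.71 ± 0.13 in MycKO (limma, adjusted p = 0.000696) and by 0.62 ± 0.13 in MlxKO (adjusted p = 0.00289). Snrpd3 was at 29.6, 31.3 and 40.9 in WT and 67.6, 38.2 and 40.0 in MycKO. MycKO9 was far above the other libraries, which overlapped WT. The difference of 0.47 was not called (limma, adjusted p = 0.104). Snrpg and Snrpe showed the same library at 81.8 against 29.6 and 29.2 and at 93.9 against 43.3 and 42.9. Snrpn was not called in MycKO, at 0.48 (limma, adjusted p = 0.11), with its lowest WT value of 4.99 in WT4.

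Sf3a2, an SF3A subunit, was at 31.3, 38.5 and 28.9 CPM in WT, 61.2, 84.0 and 78.2 in MlxKO, 65.0, 72.2 and 65.1 in MycKO and 61.2, 46.1 and 45.5 in DKO. All knockout libraries were above WT. It rose by 1.15 ± 0.16 in MlxKO, 1.02 ± 0.16 in MycKO and 0.61 ± 0.16 in DKO (limma, adjusted p = 0.000379, 0.000261 and 0.0187), and the DKO call was lost without DKO13 (0.088) or WT2 (0.0555). Sf3b1 was at 543, 495 and 541 in WT, 413, 335 and 365 in MlxKO, 313, 347 and 363 in MycKO and 424, 477 and 464 in DKO. Every knockout library was below WT. It changed by -0.51 ± 0.11 in MlxKO and by -0.62 ± 0.11 in MycKO (limma, adjusted p = 0.00424 and 0.00073). The MlxKO difference was 0.02 with the GC and length correction, the opposite sign. Sf3b3 changed by -0.56 ± 0.11 (limma, adjusted p = 0.00152) and Sf3b4, also of SF3B, rose by 0.54 ± 0.11 in MycKO (adjusted p = 0.00211), the latter not called with the correction, at 0.21.

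Mlx loss in immortalized cells gave 10 higher and 7 lower of 52, or 19.2% and 13.5%, against 19.1% and 19.9% of all genes, with a median of -0.02 against 0.01. These shares were near or below the background. SR genes gave 2 higher and 4 lower with a median of -0.27, hnRNP genes 2 and 2 with -0.09, Sm and snRNP genes 3 and 0 with 0.33, and SF3 genes 3 and 1 with 0.08. Reads divided by library totals moved the median of all genes to 0.16, and 18 members were then higher and 6 lower with a median of 0.15, against 28.5% and 12.3% of all genes. On that scale the hnRNP median was 0.08, the opposite sign. Snrpa, of the U1 snRNP, rose by 0.43 (limma, adjusted p = 0.00761), and Srsf4, an SR protein, by 0.39 (adjusted p = 0.00985). Snrpa was not called with the GC and length correction, at 0.06. Without WT4 13 members were higher and 8 lower, and without MycKO9 11 and 11. The total of 17 was 12 without MlxKO6. Hnrnpul1, Snrpf, Srsf9 and Sf3b2 were then not called as higher (limma, adjusted p = 0.122, 0.119, 0.155 and 0.0514).

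In immortalized DKO 1 member rose and 3 fell, or 1.9% and 5.8%, against 10.4% and 8.51% of all genes, with a median of -0.16 against 0.00. Sf3a2 rose, and Srsf6, Srsf3 and Sf3b3 changed by -0.47, -0.43 and -0.39 (limma, adjusted p = 0.0332, 0.0481 and 0.0299). Srsf6 was not called without DKO13, DKO14, DKO15, MlxKO7 or WT2 (limma, adjusted p from 0.0518 to 0.132), and Sf3b3 not without DKO13, DKO14, DKO15, WT2 or WT4 (from 0.0575 to 0.0946). Srsf3 was called only with all libraries in, or without MycKO9 or WT3, with adjusted p (limma) from 0.053 to 0.186 otherwise. The count of 4 was 0 without DKO13 or WT2, 1 without DKO14 or DKO15, 2 without MlxKO7 and 9 without WT3. Without WT4 it was 3 higher and 1 lower, and without MycKO9 1 higher and 4 lower. These shares were below the background in both directions.

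DKO against MycKO in immortalized cells gave 3 higher and 3 lower members, or 5.8% and 5.8%, against 14.8% and 14.6% of all genes. Srsf11 was higher in DKO by 0.65 and Sf3b1 by 0.41 (limma, adjusted p = 0.00201 and 0.0138), and Snrpc and Sf3b4 were lower by -0.42 and -0.33 (adjusted p = 0.025 and 0.0474). Sf3b1 was not called without DKO14 (limma, adjusted p = 0.0635), and Snrpc not without DKO13, DKO14 or MycKO9 (from 0.0756 to 0.0996). Sf3b4 was not called without DKO14, DKO15, MlxKO6, MlxKO7, MycKO10, MycKO11 or WT3 (limma, adjusted p from 0.054 to 0.188). With the GC and length correction it was at -0.2 and not called (limma, adjusted p = 0.195). Its call was also lost by edgeR (adjusted p = 0.0513), with no filter, with a mean of at least 5 CPM and with a robust prior. The count of 6 was 1 without DKO14, 3 without DKO15 or MycKO10 and 13 without WT4. It was 6 higher and 7 lower without WT4, and 4 higher and 1 lower without MycKO9.

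Against MlxKO, immortalized DKO gave 1 higher and 6 lower members, or 1.9% and 11.5%, against 16.3% and 13.9%. Hnrnpab was lower by -0.63, Sf3a2 by -0.54 and Srsf9, a short SR protein, by -0.76 (limma, adjusted p = 0.0198, 0.0209 and 0.0102), and Snrpn was higher by 0.81 (adjusted p = 0.0205). Hnrnpab and Sf3a2 were not called without DKO14, DKO15, MlxKO6 or MlxKO7 (limma, adjusted p from 0.0741 to 0.0961), and Srsf9 not without MlxKO7 (0.0516). Snrpn was not called without DKO13, DKO15, MlxKO5, MlxKO6 or MlxKO7 (limma, adjusted p from 0.0521 to 0.068). Its call was also lost with library totals, at 0.66, and with the GC and length correction, at 0.62 (limma, adjusted p = 0.0577 and 0.0908). That count of 7 was 0 without MlxKO7, 1 without MlxKO6, 2 without DKO14 or DKO15, 12 without MycKO9 and 18 without WT4. With library totals the median of all genes moved to -0.16, and 20 members were lower and 0 higher, against 23.9% and 9.82% of all genes. The counts were 4 higher and 14 lower without WT4, and 2 higher and 10 lower without MycKO9.

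The interaction was called for 9 members upward and 13 downward in immortalized cells, or 17.3% and 25.0%, against 23.7% and 23.8% of all genes, so this too was near or below the background. Sm and snRNP genes gave 0 higher and 6 lower of 12 with a median of -0.67, and SR genes 4 higher and 1 lower of 11 with 0.41. The median of all genes was -0.01 on the authors' scale and -0.18 with library totals, where 6 members were higher and 16 lower, against 18% and 30.4% of all genes. With the GC and length correction the counts were 2 and 12 and the SR median was -0.06, the opposite sign. Over all genes 22.5% were higher and 19.2% lower with that correction. The counts were 11 and 14 without WT4, and 14 and 14 without MycKO9. The total of 22 was 15 without MlxKO7. Of the 6 Sm and snRNP genes, Snrpd3, Snrpd2 and Snrpb were then not called (limma, adjusted p = 0.053, 0.0524 and 0.0781).

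The other splicing genes in immortalized MycKO gave mixed counts, to be read against 24.4% higher and 23.5% lower over all genes. SR-related proteins gave 11 lower of 14 with a median of -0.54, including Tra2b at -0.76 ± 0.13 (limma, adjusted p = 0.000708), or -0.43 with the GC and length correction. Other snRNP proteins gave 5 higher and 3 lower of 24, with Lsm7, of the Lsm ring, at 0.97 ± 0.31 and Snrnp200, the helicase that unwinds U4 from U6, at -0.59 ± 0.14 (limma, adjusted p = 0.0214 and 0.00462), the latter at -0.38 with the correction. Lsm7 was at 28.1 CPM in MycKO9 against 12.3 and 14.6, and was not called without MycKO9, at 0.63 (limma, adjusted p = 0.0913), without WT2, at 0.72 (0.0925), or with the correction, at 0.46 (0.200). Branch point factors gave 2 higher and 4 lower of 12, the minor spliceosome 3 and 2 of 8, the Prp19 group 1 and 4 of 17, Sm ring assembly 2 and 2 of 13 and SR kinases 1 and 3 of 6. The higher shares in these groups were 16.7%, 37.5%, 5.9%, 15.4% and 16.7%, and the lower shares of the first 4 were 33.3%, 25.0%, 23.5% and 15.4%, so most were near or below the background. The SR kinases, with 3 of 6 lower, were above it, and of these Clk1, which phosphorylates SR proteins, was not called with the correction, at -0.33 (limma, adjusted p = 0.113). Other hnRNP-type regulators gave 2 higher and 8 lower of 26, with the muscleblind gene Mbnl3 at -1.63 ± 0.20 (limma, adjusted p = 5.76e-05). Gemin7, of the SMN complex, was the highest of its group at 1.30 ± 0.22 (limma, adjusted p = 0.000576), and Wdr77, the cofactor of Prmt5, the lowest at -0.89 ± 0.21 (adjusted p = 0.00431). Gemin7 was at 0.85 with the correction and Wdr77 at -0.59 without WT4, both still called. Neither Ptbp1 nor Prmt5 was called.

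Base composition moved with the immortalized results. Over the 52 members the correlation of transcript GC content with log2 fold change was 0.668 in MlxKO, 0.592 in MycKO and 0.502 in DKO, against 0.474, 0.301 and 0.293 over all genes with a known transcript. Called members had a median GC content of 53.1% where higher in immortalized MycKO and 41.4% where lower. In primary cells the members' correlation was 0.0861 in MycKO, 0.0847 in DKO and -0.442 in MlxKO. These are correlations over genes, which are not independent replicates, and the part of base composition in any result was not tested.

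The members lie on 18 chromosomes of GRCm39 (GENCODE vM39). Some lie near each other on the same strand, such as Hnrnpd at chr5:100103794-100127029 and Hnrnpdl at chr5:100179317-100187792. Others are Hnrnpll at chr17:80335472-80370014 with Srsf7 at chr17:80507501-80514879, and Hnrnpa0 at chr13:58273693-58276370 with Hnrnpk at chr13:58536691-58551339. Srsf1 lies at chr11:87938129-87944581 and Sf3a2 at chr10:80633568-80640759. In 17 of the 52 members at least 10% of the 50-base stretches of the longest coding transcript occur in another gene, and their levels are uncertain to that degree. Of the 34 tested members without such copies 18 fell and 0 rose in primary MycKO, and 23 fell in primary DKO with a median of -0.30. Of all genes tested 21.9% fell and 20.4% rose in primary MycKO, and 25.5% fell in primary DKO.

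Promoters were searched for CACGTG, the sequence that Myc and Max bind, because many members moved together in primary MycKO. RefSeq promoters (GRCm38.p6, 300 bases, of which 250 lie before the start) matched 46 of 52 members. The motif reads the same on both strands, and no other motif was searched. It occurred in 6 of 46 members, or 13.0%, against 8.09% of 27025 symbols, and in 11.1% of 63 member promoters against 7.15% of 32851. In primary MycKO 5 of the 6 members with it fell, with a median of -0.27, and 22 of 39 without it fell, also with a median of -0.27. Of all genes tested 21.9% fell in primary MycKO, and a relation of the falls to the motif was not tested. The stretches of 30 bases around it are shown because they are the members' matches; capitals mark the motif, and a match is a description, not a site or a cause. Coordinates are from an exact match to GRCm39, and each is written 5′ to 3′ on its gene's strand: Hnrnpa3 chr2:75489573-75489602, Hnrnpd chr5:100126812-100126841, Hnrnpf chr6:117884674-117884703, Hnrnph2 chrX:133501931-133501960, Hnrnpm chr17:33904402-33904431 and Snrpa chr7:26895237-26895266, the first of several matches of that gene. All but the Hnrnpa3 stretch lie in an annotated exon of the gene named.
Hnrnpa3: cggatagcacatCACGTGgtgactggcccc
Hnrnpd: gcgctccggagcCACGTGaccgggacgcgc
Hnrnpf: cgagcgggcgctCACGTGgcccgaggcgcc
Hnrnph2: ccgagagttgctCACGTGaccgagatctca
Hnrnpm: gtcgttcggggtCACGTGagcgcgcaggcg
Snrpa: acgcctttcgcgCACGTGgactaatgggaa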

How the data were processed

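Libraries were poly-A selected and strand specific, with RNA integrity numbers above 9.6 per the labels. The unit is signal: values that the authors headed CPM, made with CLC Genomics Workbench version 22 on GRCm39, whose columns sum to between 915691 and 1077213. Whole read counts were recovered from them, with 100% of values whole within a tolerance of 0.1. The test took in 13101 primary and 12880 immortalized genes, those that reached 1 CPM in 3 or more of a table's 12 libraries. limma 3.58.1 (R 4.3.3) was fitted to log2(CPM + 1) over the 4 groups of a table, with a trend in the variance prior and Benjamini-Hochberg adjustment over all genes tested. It called 5541 genes in primary and 6176 in immortalized MycKO. On the recovered reads edgeR 4.0.16 called 5565 and 6106, and DESeq2 1.42.0 called 5587 and 6360. Scripts used Python 3.11.15 and matplotlib 3.10.9, and the model was tested on simulated data.

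The members and the gene lists were chosen with earlier results of these data known. Genes were chosen for naming by rules. In each family and table they were the 2 members with the lowest and the 2 with the highest fold change in MycKO. Also chosen were up to 10 members a table with a called interaction, and members called in opposite directions in knockouts of a table (0 were). A set of well known members with Ptbp1 and Prmt5, and the extremes of each list, completed the choice. Not all chosen genes are described, such as immortalized Snrpb2, and immortalized Snrpg was described outside these rules. Alternatives were a pseudocount of 0.1, no filter, a mean of at least 5 CPM, median-ratio scaling, library totals, the compared groups alone, a robust prior, edgeR, DESeq2, the calls they share, each library left out, and members without near copies. A further alternative, chosen after seeing the data, corrected folds for the GC content and length of transcripts.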

Additional observations from a re-analysis of the deposited data

Results flagged for a closer look

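In immortalized cells the effect of Myc loss differed with Mlx genotype for 22 splicing genes by the interaction test of limma, which is what brought them here. A log2 interaction below zero means that the signed change with Myc loss was lower in cells without Mlx, not that it was smaller in size. The interaction was below zero for Sf3a2 (-1.56), Hnrnpab (-1.52), Snrpc (-1.04), Sf3b4 (-0.85), Snrpf (-1.89), Srsf9 (-1.06), Snrpa (-0.59), Hnrnpul1 (-0.67), Snrpd3 (-1.04), Snrpd2 (-0.84), Hnrnpa0 (-0.65), Snrpb (-0.75) and Sf3b2 (-0.54). It was above zero for Srsf11 (1.2), Sf3b1 (0.92), Hnrnph1 (0.76), Srsf6 (0.76), Srsf3 (0.71), Hnrnpa2b1 (0.53), Hnrnpll (0.6), Srsf10 (0.66) and Hnrnpr (0.39). Of the members tested 17.3% were called above and 25.0% below zero, against 23.7% and 23.8% of all genes. With the GC and length correction these were no longer called: Hnrnph1 (0.03), Sf3b1 (0.21), Srsf6 (0.29), Srsf3 (0.31), Snrpa (-0.08), Sf3b4 (-0.35), Hnrnpul1 (-0.26), Hnrnpll (0.03), Hnrnpa0 (-0.09), Sf3b2 (-0.09), Snrpd2 (-0.36), Srsf10 (0.23) and Hnrnpr (-0.34, the opposite sign). Hnrnpa2b1 (0.35), Hnrnpr (0.22) and Srsf10 (0.48) were not called with library totals. Snrpb was not called without DKO13, DKO14, DKO15, MlxKO6, MlxKO7, MycKO9 or WT2, with values from -0.78 to -0.56, nor Snrpd3 without MlxKO6 (-0.95) or MlxKO7 (-0.91). Snrpd2 was not called without DKO13, MlxKO7 or WT2, and Srsf10 not without DKO14, DKO15, MlxKO6, MlxKO7 or MycKO10. Hnrnpr, Hnrnpa0 and Sf3b2 each lost the call without any one of 7 or 8 libraries. Hnrnpa0, Sf3b2 and Snrpb were also not called with no filter on low values, and Sf3b2 not by edgeR. Groups of 3 libraries were not tested for outlying samples.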

How the results depend on the processing

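No paired analysis was possible because library numbers in the column headers are not tied to replicate numbers, and for that reason the replicate block was not run. Of 60 single results in each table, 671 of 720 values with a library left out kept their side of the threshold in primary cells and 622 of 720 in immortalized cells. Under the other alternatives 629 of 660 and 594 of 644 kept it. The reversed ones were Hnrnph1 (0.01) and Sf3b1 (0.02) in immortalized MlxKO with the GC and length correction. The number of members called in primary MlxKO was 4 with median-ratio scaling, 1 with library totals, 4 with edgeR, 5 with DESeq2, 4 with the correction and 1 among members without near copies. Of all genes 3.39% were higher and 5.94% lower with median-ratio scaling, and 5.04% and 4.34% with library totals. The shares were 3.36% and 5.75% with edgeR, 4.07% and 7.24% with DESeq2 and 7.01% and 7.92% with the correction. Among members without near copies, 18 were called in primary MycKO, 23 in primary DKO, 12 in immortalized MycKO and 3 in immortalized DKO against MlxKO, where fewer genes were counted. The correction gave 5 in primary DKO against MycKO, 11 in immortalized MlxKO, 13 in immortalized DKO against MlxKO and 14 for the immortalized interaction. In the first 12.4% of all genes were higher and 15.1% lower with it, and in immortalized MlxKO 11.2% and 16.1%. The shares were 18.3% and 15% in immortalized DKO against MlxKO and 22.5% and 19.2% for the interaction. With only the groups compared the immortalized counts were 13 in MycKO, 0 in DKO, 10 in DKO against MycKO and 19 in DKO against MlxKO. Immortalized DKO gave 2 with no filter and 10 with DESeq2, and DKO against MlxKO 12 with DESeq2 and 20 with library totals. With DESeq2 11.6% of all genes were higher and 11.7% lower in immortalized DKO, and 17.7% and 15.6% in DKO against MlxKO. With library totals the latter were 9.82% and 23.9%. Medians of the members with library totals were -0.37 in primary MycKO, -0.44 in primary DKO and 0.15 in immortalized MlxKO. With the correction they were -0.20 in primary MycKO, -0.28 in primary DKO, 0.15 in immortalized MlxKO, -0.03 in immortalized MycKO and -0.05 in immortalized DKO. Without near copies the median was -0.30 in primary DKO and 0.00 in immortalized MlxKO, which was -0.05 with a mean of at least 5 CPM. Immortalized Mlx in DKO was -0.55 with the correction. With each library left out in turn, counts ran from 0 to 8 in primary MlxKO. They ran from 1 to 13 in primary DKO against MycKO and from 0 to 2 for the primary interaction. In immortalized cells they ran from 12 to 22 in MlxKO, 0 to 9 in DKO and 1 to 13 in DKO against MycKO. The range was 0 to 18 in immortalized DKO against MlxKO and 15 to 28 for the immortalized interaction. Medians ran from -0.11 to -0.04 in primary MlxKO, -0.32 to -0.24 in primary MycKO, -0.43 to -0.32 in primary DKO, -0.07 to 0.00 in immortalized MlxKO, -0.17 to -0.05 in immortalized MycKO and -0.19 to -0.09 in immortalized DKO. Immortalized Myc ran from -2.81 to -1.74 in MycKO and from -3.77 to -2.71 in DKO, and Mlx from -0.52 to -0.34 in DKO. The cause of these changes was not tested. At this depth members near the filter, such as Srsf12, rest on few reads.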
